A study of Homo sapiens with 6 samples.

Results

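The cytosolic ribosomal protein genes are 83 of the 12308 different rows that the deposited table lists by gene symbol. They were chosen by symbol alone: RPL or RPS with a number and, for paralogs, an ending such as L, L1, or AL, together with RPLP0 to RPLP2 and RPSA. The large subunit contributes 51 of them and the small subunit 32. Of the 83, 77 are the core genes that are the main source of each protein, and 6 are paralogs, which are related copies at other places in the genome: RPL7L1, RPL22L1, RPL26L1, RPL36AL, RPL39L, and RPS27L. All 83 had values high enough to be tested, and each had at least 691 estimated reads in every library, so none of them rested on few reads.

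Total RNA of 2 ovarian cancer lines was sequenced, 3 cultures of each. OVCAR5 is the parental line, BRCA wild-type and, per the study's methods, p53 null. OVCAR5R is the Prex-resistant (PrexR) line derived from it. Prex, prexasertib, inhibits the checkpoint kinase CHK1. OVCAR5R was selected in rising Prex concentrations and kept in Prex, and the study's methods describe some days off the drug before experiments. Whether OVCAR5R is 1 clone is not given in the sources used here. Its cultures are all of 1 derived line, so a difference tied to resistance cannot be told apart from another change during its derivation.

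A ribosome is assembled from ribosomal RNA and ribosomal proteins in set proportions, so cells keep the proteins of both subunits in step. In human cells most mRNAs of ribosomal proteins start with a cytosine and a run of pyrimidines, the 5′ terminal oligopyrimidine (TOP) tract, through which mTORC1 and LARP1 control their translation together. Some ribosomal proteins also have other roles: RPL5 and RPL11 bind MDM2, and RPS6 is a substrate of the S6 kinases.

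The tract can be read at the annotated start of most of these genes. Among the 67 members matched by symbol in the RefSeq promoter table (build GRCh38.p14), 47 (70.1%) had a C at an annotated start followed by at least 4 further C or T, against 5.14% of all 27305 genes in that table. Of the core genes, 46 of 62 had it, and of the paralogs, 1 of 5. The tract is printed here for RPL34 and RPL13, the members with the lowest log2 fold changes, and for 4 core genes beside their paralogs, because the paralogs are described beside their core genes. Each line holds 15 bases before the annotated start and 15 bases from the start onward, 5′ to 3′ on the gene's own strand, and capitals mark the pyrimidine tract. Where several starts are annotated, the start with the longest tract is shown.

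RPL34 (chr4:108620561-108620590, plus strand): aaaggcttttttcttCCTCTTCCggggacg
RPL13 (chr16:89560667-89560696, plus strand): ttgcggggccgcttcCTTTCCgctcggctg
RPL22 (chr1:6199581-6199610, minus strand): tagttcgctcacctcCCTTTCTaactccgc
RPL22L1 (chr3:170870181-170870210, minus strand): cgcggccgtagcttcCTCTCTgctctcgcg
RPL26 (chr17:8383179-8383208, minus strand): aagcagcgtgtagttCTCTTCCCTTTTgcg
RPL26L1 (chr5:172958714-172958743, plus strand): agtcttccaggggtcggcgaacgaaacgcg
RPL36A (chrX:101390996-101391025, plus strand): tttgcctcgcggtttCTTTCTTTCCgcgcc
RPL36AL (chr14:49620612-49620641, minus strand): ctgtttcttccctttcctgttaggcgagag
RPS27 (chr1:153990747-153990776, plus strand): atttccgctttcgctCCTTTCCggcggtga
RPS27L (chr15:63157463-63157492, minus strand): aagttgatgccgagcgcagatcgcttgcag

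The 4 core genes of these pairs each carry the tract, and of their paralogs only RPL22L1 does. A match is a description of the annotated start, and no match says only that these letters are not at the starts listed. RPL7L1 and RPS29 also had no tract at the starts listed.

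The first question was whether the ribosomal protein genes as a family differed between PrexR and parental cells. They did not differ beyond the spread between cultures. With limma on log2(value + 1) and Benjamini-Hochberg adjustment over all 11766 genes tested, 0 of the 83 members passed an adjusted p of 0.05, against a background of 0.119% of all genes (14 genes, 0.017% higher and 0.102% lower in OVCAR5R). At so low a background, 0 called among 83 says little by itself. The members' adjusted p-values by limma ran from 0.293 to 0.997. At an unadjusted p under 0.05, 1 member (RPL34) passed, against 10.4% of all genes. By sign alone, 33 members had a log2 fold change above 0 and 50 below 0, and of all genes tested 49.2% were above 0.

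The members' changes were also small. The median log2 fold change was -0.04 over the members, and the middle 50% of them lay between -0.11 and 0.04, while the median of all genes tested was -0.01. A log2 fold change within 0.1 of 0 was found for 43 members (51.8%), against 21.9% of all genes tested. The 95% confidence interval lay within a log2 fold change of -1 to 1 for 75 members (90.4%), against 59.4% of all genes. Members rose and fell together by culture, so these are not counts of independent genes, and the shares of all genes include genes with low values. With a library left out, the member median log2 fold change ran from -0.16 to 0.14. The standard error of a member's log2 fold change had a median of 0.26 (0.19 for RPS27L to 0.49 for RPL13). With 3 cultures a line, even a shift of several standard errors in a single member could go uncalled. RPL34, at -1.08 (SE 0.28), had an adjusted p of 0.293 by limma.

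**Figure D1:**
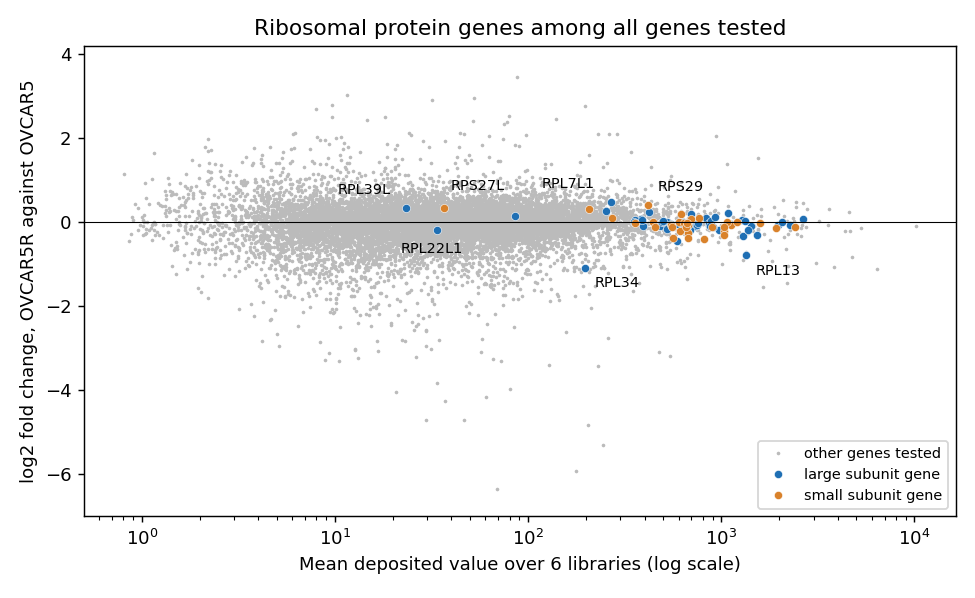
The log2 fold change of OVCAR5R against OVCAR5 (vertical axis) is plotted against the mean deposited value over the 6 libraries (horizontal log axis), with a point per gene: grey for other genes tested, blue for large subunit genes, orange for small subunit genes. The ribosomal protein genes lie mostly at the right, close to 0, and run from -1.08 (RPL34) to 0.47 (RPL7L1).

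Large and small subunit genes were then compared, since both subunits are needed in equal number. The median log2 fold change was -0.04 for the large subunit (22 above 0, 29 below) and -0.06 for the small subunit (11 above, 21 below), a difference of 0.02. Large subunit genes held 3.62, 5.09, and 3.82% of the summed value in the OVCAR5 cultures, taken in the order of replicates 1, 2, and 3 as everywhere here, against 4.65, 4.40, and 3.43% in the OVCAR5R cultures. For the small subunit the shares were 2.12, 3.16, and 2.28% in OVCAR5 and 2.83, 2.58, and 2.03% in OVCAR5R. Both subunits had their highest share in OVCAR5 replicate 2 and their lowest in OVCAR5R replicate 3, and their ratio varied little. The ratio of large to small was 1.66 ± 0.0474 (SD, n = 3) in OVCAR5, and 1.68 ± 0.0308 (SD, n = 3) in OVCAR5R, so the lines overlapped.

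What did vary was the level of the whole family from culture to culture. Members made up 5.74, 8.24, and 6.10% of the summed value of the OVCAR5 cultures (6.69 ± 1.35, SD, n = 3), and 7.49, 6.98, and 5.45% in OVCAR5R (6.64 ± 1.06, SD, n = 3). OVCAR5 replicate 2 had the highest share and OVCAR5R replicate 3 the lowest, so the extremes fell in different lines and the ranges overlapped. In bulk RNA, fewer cells with high levels and less of these mRNAs per cell cannot be told apart.

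Nearly every member followed this pattern. OVCAR5 replicate 2 was the highest of the 3 OVCAR5 cultures for 76 of 83 members, and OVCAR5R replicate 3 the lowest of the 3 OVCAR5R cultures for 78. Over all 6 libraries, 54 members peaked in OVCAR5 replicate 2, where 26.9% of all genes did, and 56 were lowest in OVCAR5R replicate 3, where 14.2% of all genes were. The median log2 deviation of a member from its own mean over the libraries was -0.23, 0.36, and -0.09 in OVCAR5 and 0.23, 0.07, and -0.32 in OVCAR5R. These median deviations span a larger log2 difference within each line than the -0.04 between the lines.

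**Figure D2:**
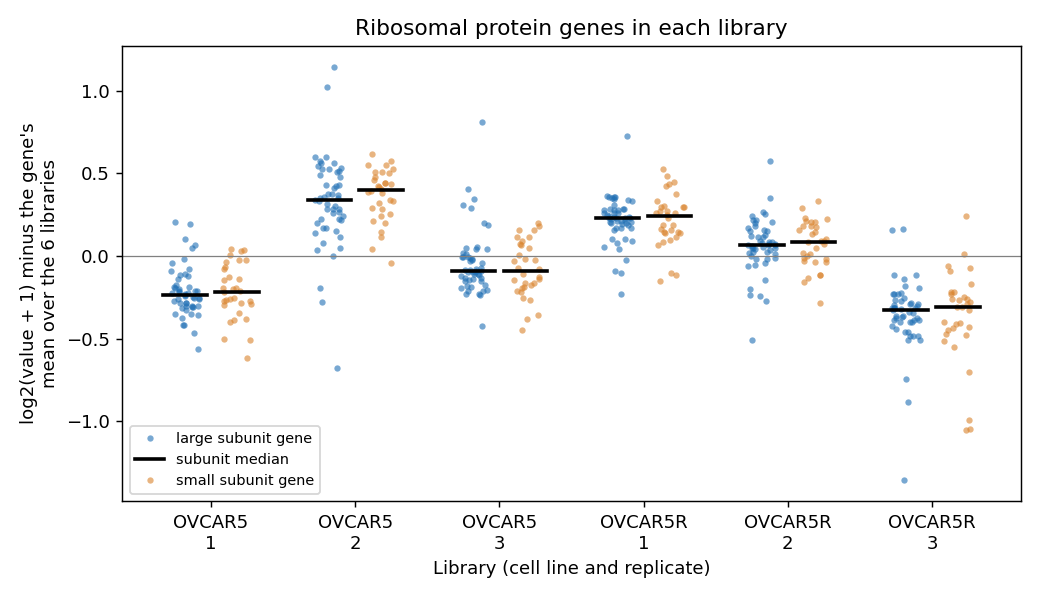
The log2 deviation of each member from its own mean over the 6 libraries (vertical axis) is drawn for each library (horizontal axis), with large and small subunit genes in separate colors. Both subunits lie highest in OVCAR5 replicate 2 (medians 0.34 and 0.40) and lowest in OVCAR5R replicate 3 (-0.33 and -0.31).

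Other genes with a mean value of at least 100 (2174 genes) deviated by medians of -0.02, -0.10, and 0.09 in OVCAR5 and 0.08, 0.02, and -0.02 in OVCAR5R, with no such peak in OVCAR5 replicate 2. The 1100 other genes with the shortest transcripts, up to 1210 bases, deviated by -0.20, 0.32, and -0.03 in OVCAR5 and by 0.01, 0.08, and -0.11 in OVCAR5R. The short genes thus also peaked in OVCAR5 replicate 2, but they were lowest in OVCAR5 replicate 1 and near 0 in OVCAR5R replicate 1, where the members were high. The part of transcript length in the family's movement was not tested. Within lines, the median SD of a member was 0.32 on the log2 scale, and 0.13 when each member was taken relative to the member median of its library. Part of that fall follows from subtracting the members' own median.

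Depth and identity of the libraries bear on this. The deposited values of a library added up to 937274 at the lowest and 1038240 at the highest. The steps between low values correspond, in units of 1e6 estimated reads, to 35.8 to 41.3 in OVCAR5 and 50.3 to 55.1 in OVCAR5R. OVCAR5 replicate 2, where the family was highest, had the fewest estimated reads and stood apart in cell type markers. Its summed value of the epithelial list (7 of 8 genes in the table, CDH1 not among them) was 17405, against 2389 at the lowest in OVCAR5 and 3606 to 4820 in OVCAR5R. EPCAM, an epithelial adhesion molecule, was at 597 there and between 11.9 and 31.7 in the other 5 libraries. Ovarian lineage markers were low in all libraries (summed value 8.63 to 34.0), fibroblast and immune lists had 2 of 6 and 1 of 5 genes in the table, and endothelial markers 0 of 3. The part of these differences in the family's level was not tested, and without OVCAR5 replicate 2 the member median log2 fold change was 0.14, with 0 members called. Mitochondrial transcripts, a second abundant class, held 3.72 ± 0.179% (SD, n = 3) of the summed value in OVCAR5 against 2.08 ± 0.800% (SD, n = 3) in OVCAR5R. They were lowest in OVCAR5R replicate 1, where the members were high.

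None of the 3 stalk proteins of the large subunit passed the test. RPLP0, which anchors the stalk that recruits translation factors, had values of 1853, 2570, and 1757 in OVCAR5 and 2330, 2149, and 1708 in OVCAR5R. The lines overlapped, with a log2 fold change of 0.01 (95% interval -0.57 to 0.59, adjusted p = 0.996 by limma). RPLP1 and RPLP2, the acidic stalk proteins, had log2 fold changes of -0.18 and -0.09, and both were highest in OVCAR5 replicate 2, at 2024 and 1301.

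RPL5 and RPL11, which reach MDM2 when ribosome assembly fails, were close to level. RPL5 was at 768, 1047, and 812 in OVCAR5 and at 1104, 910, and 679 in OVCAR5R, a log2 fold change of 0.02 (SE 0.25). RPL11 was at 717, 1135, and 810 in OVCAR5 and at 1003, 862, and 680 in OVCAR5R, a log2 fold change of -0.06 (SE 0.26). For both genes the ranges of the lines overlapped nearly in full.

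On the small subunit, RPS6 was at 598, 853, and 563 in OVCAR5 and 804, 696, and 485 in OVCAR5R, a log2 fold change of -0.03. RPSA, the laminin receptor precursor, differed by 0.01 and RPS27A, which is made as a fusion with ubiquitin, by 0.00 on the log2 scale. The sign of the change of RPL11 and RPS6 turned under other scalings, and with every value this close to 0 no direction can be given. Of the members with the highest values, RPL8 averaged 2553 ± 194 in OVCAR5 and 2738 ± 525 in OVCAR5R, RPS2 2544 ± 889 and 2260 ± 102, and RPL4 2307 ± 270 and 2244 ± 626 (SD, n = 3 each). Their log2 fold changes were 0.09, -0.11, and -0.07, each within its culture spread.

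Levels between genes were compared per kilobase of coding sequence. The median member stood at 1569 in OVCAR5 and 1427 in OVCAR5R, in deposited value per coding kilobase. RPL41, the shortest ribosomal protein with 75 coding bases, led at 7520 and 7152, ahead of RPLP1 at 4295 and 3742. At the other end were RPL22L1 at 100.2 and 84.2, RPS27L at 128 and 162, and RPL39L at 135 and 170. In OVCAR5 the lowest 5 members were all paralogs, and the lowest core gene was RPS26 at 539. In OVCAR5R the core gene RPL34, at 357, lay under the paralog RPL7L1, at 401. RPL36AL, at 731 and 868, was the paralog with core-like levels in this measure. The order depends on the divisor. The deposited means of RPL41, 564 in OVCAR5 and 536 in OVCAR5R, lay under those of RPLP1, 1469 and 1280. Whether reads outside the coding sequence were counted is not given in the sources used here. If they were, a short coding sequence raises a gene in this order.

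None of the 6 paralogs passed the test. Their median log2 fold change was 0.31, with 5 of 6 above 0, against -0.05 for the 77 core genes, of which 28 were above 0, and this difference was not tested. RPL7L1, a nucleolar relative of RPL7 in large subunit assembly, was at 221, 162, and 299 in OVCAR5 and 330, 299.7, and 291 in OVCAR5R. The highest OVCAR5 culture lay within the OVCAR5R range, and its log2 fold change of 0.47 (SE 0.25, 95% interval -0.11 to 1.05) had an adjusted p of 0.548 by limma. RPL7 itself was at 1623, 1507, and 1915 in OVCAR5 and 1739, 1366, and 1064 in OVCAR5R, a log2 fold change of -0.30.

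RPS27L is a relative of RPS27 that p53 can induce, and the study describes OVCAR5 as p53 null. It was at 31.5, 35.2, and 29.9 in OVCAR5 and 38.5, 41.0, and 43.0 in OVCAR5R. The lines did not overlap, yet the log2 fold change of 0.34 (SE 0.19) had an adjusted p of 0.577 by limma. RPL39L, which replaces RPL39 in testis ribosomes, was at 17.8, 20.0, and 24.0 in OVCAR5 and 27.6, 24.6, and 25.9 in OVCAR5R. Its lines did not overlap either, by the narrow gap between 24.0 and 24.6 (log2 fold change 0.33, adjusted p = 0.614 by limma).

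These were the only 2 members (2.41%) whose OVCAR5R libraries all lay above the OVCAR5 libraries, against 8.4% of all genes (16.6% in either direction), so the count is below the background. RPS27 and RPL39 had log2 fold changes of -0.12 and 0.01. RPL36AL stood at 195, 318, and 185 in OVCAR5 and 302, 297, and 229 in OVCAR5R, a log2 fold change of 0.28, while RPL36A, its close relative, had 0.06. RPL26L1 ranged from 59.3 to 93.8 in OVCAR5 and from 66.5 to 137 in OVCAR5R (log2 fold change 0.15), and RPL22L1 from 26.3 to 57.1 and from 24.3 to 41.1 (-0.18). The core genes RPL26 and RPL22 had log2 fold changes of 0.01 and 0.05. RPL3L and RPL10L were not among the rows analyzed.

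**Figure D3:**
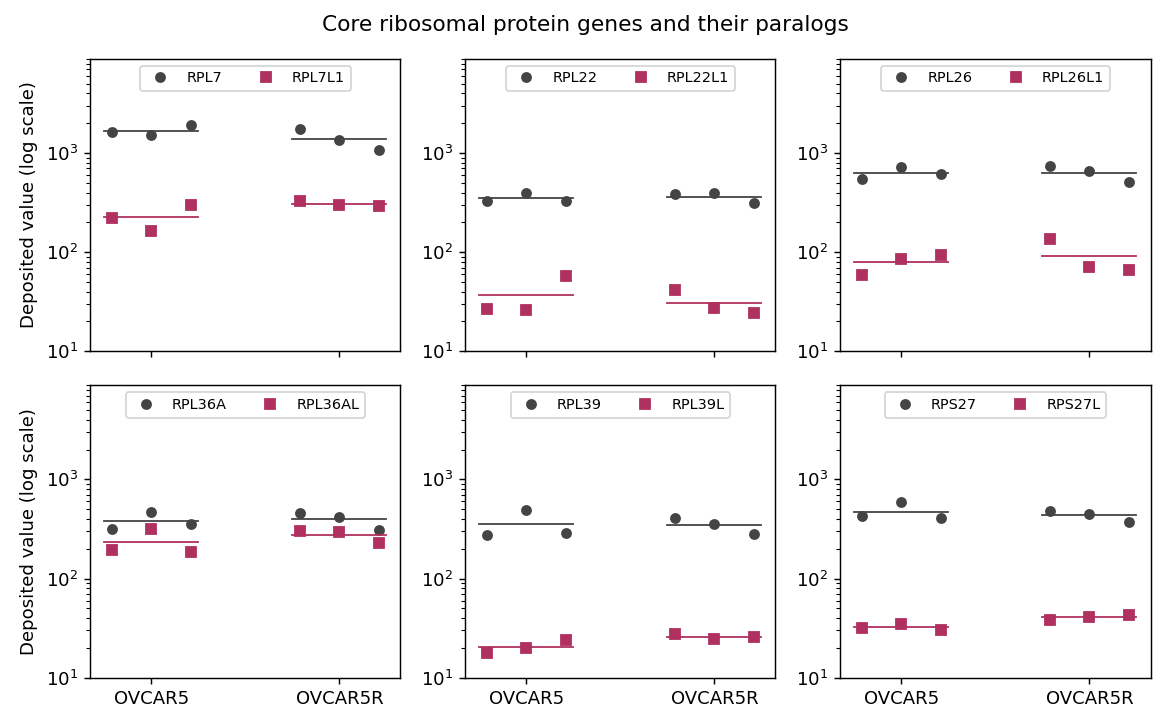
Deposited values (vertical log axis) are shown for 6 core genes (grey circles) and their paralogs (red squares), with a point per culture and a line at the mean of each cell line. Each paralog lies below its core gene in every culture, least so for RPL36AL, and RPS27L and RPL39L are the paralogs whose lines do not overlap.

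RPL34, a large subunit protein, departed most from the family. Its values were 206, 366, and 238 in OVCAR5 (270 ± 85.0, SD, n = 3) and 153, 126, and 97.2 in OVCAR5R (125 ± 28.0, SD, n = 3). All 3 OVCAR5R cultures lay below all 3 OVCAR5 cultures, which was so for 1 member (1.2%) and for 8.18% of all genes. The log2 fold change was -1.08 (SE 0.28, 95% interval -1.72 to -0.44), with an adjusted p of 0.293 by limma, so it did not pass over all genes. Leaving out a culture kept it between -1.25 and -0.84.

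RPL13, a large subunit protein, varied most of all members. It was at 997, 2635, and 1454 in OVCAR5 and 1365, 1174, and 464 in OVCAR5R, so the lines overlapped while single cultures lay far apart. Its log2 fold change was -0.79 (SE 0.49, 95% interval -1.91 to 0.34, adjusted p = 0.609 by limma). Without OVCAR5R replicate 3 it was -0.30 and without OVCAR5 replicate 2 it was -0.41, so the cultures at either end carried much of the difference.

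Other members at the ends of the range overlapped between the lines. RPL28 was at 657, 764, and 588 in OVCAR5 and 705, 482, and 340 in OVCAR5R (log2 fold change -0.45), and RPS23, at the decoding site, at 551, 671, and 618 and at 727, 536, and 269 (-0.37). RPS20, of the small subunit head, had a log2 fold change of -0.39 and RPL3, at the peptidyl transferase center, of -0.32. RPS29, a small zinc-binding protein of the small subunit, was at 283, 511, and 296 in OVCAR5 and 551, 510, and 359 in OVCAR5R (log2 fold change 0.41, SE 0.29). RPS26, at the mRNA exit channel, had a log2 fold change of 0.31 (SE 0.25). OVCAR5R replicate 3 had the lowest of the 6 values for RPL28, RPS23, RPS20, and RPL3.

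**Figure D4:**
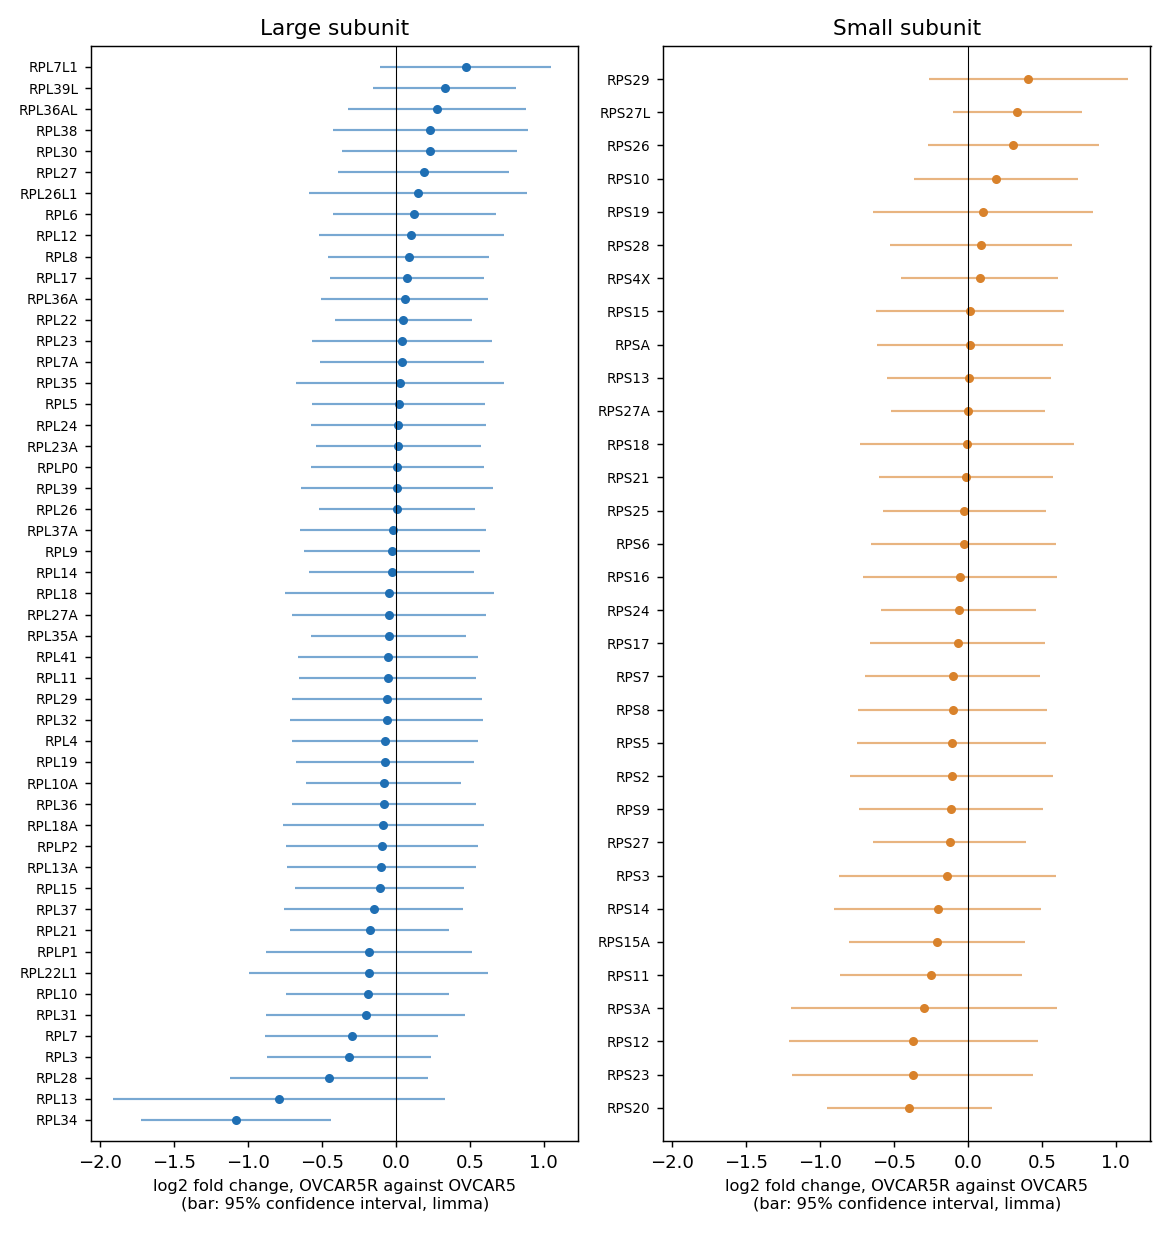
The log2 fold change of OVCAR5R against OVCAR5 (horizontal axis) is drawn for each large subunit gene (left panel) and small subunit gene (right panel), with bars for the 95% confidence interval from limma. The intervals of all members but RPL34 include 0.

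Because the family moved as a whole with the culture, each member was also expressed relative to the member median of its library, a step chosen after seeing the data. RPL34 remained lowest at -1.02, and RPL13 was at -0.73. Without the common movement, 6 members lay higher in all OVCAR5R cultures (3.69% of all genes did so) and 3 lay lower (4.84% of all genes, and 8.52% in either direction). The higher ones were RPS29 (0.47), RPL36AL (0.34), RPL38 (0.29), RPS10 (0.25), RPL27 (0.25), and RPL36A (0.12), and the lower ones RPL34, RPS20 (-0.34), and RPL3 (-0.26). Subtracting the members' own median narrows the members' spread but adds their common movement to all other genes. Before this step, 16.6% of all genes showed no overlap in either direction. The shares after it are therefore not a like background for the members. Still 0 members passed an adjusted p of 0.05 by limma, and 2 (RPL34 and RPL13, 2.41%) had an unadjusted p under 0.05, against 5.97% of all genes. Those not listed before, RPL38, RPS10, and RPL27, are named here after their values were seen.

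Where the members lie in the genome was then set beside their changes. The 83 genes lie on 21 chromosomes (GENCODE release 29, GRCh38, the assembly of the build in the labels), so each has its own set of neighbours. For each member, the median log2 fold change of the other genes tested within 10 Mb on either side was taken. These medians ran from -0.76 to 0.63, and over the 83 members they correlated with the member's own change at r = 0.735 (Spearman's rho 0.563), or 0.66 without RPL34. Among the 77 core genes r was 0.809. Members that share a window share neighbours, and the points share all 6 libraries, so these are descriptions without a test.

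Some members at the ends of the range lay among genes shifted the same way. RPL34 (chr4:108620566-108630412, plus strand) had 51 neighbours with a median log2 fold change of -0.76. Those neighbours deviated by medians of 0.51, 0.27, and 0.27 in OVCAR5 and -0.44, -0.47, and -0.30 in OVCAR5R, so they were lower in each OVCAR5R culture, as RPL34 was. RPL13 (chr16:89560657-89566828, plus strand) had 70 neighbours with a median of -0.59. Their deviations were -0.04, 0.44, and 0.44 in OVCAR5 and -0.08, -0.06, and -0.73 in OVCAR5R, lowest in the culture where RPL13 was lowest.

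RPL3 (chr22:39312882-39320389, minus strand) lay among 167 genes with a median of -0.53. RPS29 (chr14:49570984-49599164, minus strand) and RPL36AL (chr14:49618519-49620685, minus strand) are close neighbours and shared 71 genes with a median of 0.63. Culture by culture, these members could differ from their neighbours. The neighbours of RPL3 were at -0.54, -0.39, and 0.09 in OVCAR5R, highest in replicate 3, where RPL3 was lowest. Those of RPS29 and RPL36AL were lowest in OVCAR5 replicate 2 (-0.44), where both genes had their highest OVCAR5 value. Between the lines, the signs of these members' changes matched those of the median of the genes around them. RPS23 (neighbour median -0.29) and RPS20 (-0.23) lay among genes shifted less, in the same direction as the gene. The neighbours of RPS23 were lowest in OVCAR5R replicate 3 (-0.48), as RPS23 was. Those of RPS20 were lowest in OVCAR5 replicate 2 (-0.25), where RPS20 was highest. Others at the ends had no such shift around them: RPS26 (neighbour median 0.02) and RPL28 (-0.10) lay among genes with little change. Of the paralogs, RPL7L1 on chromosome 6 (neighbour median 0.06) and RPS27L on chromosome 15 (-0.08) were likewise among genes near 0, while RPL39L on chromosome 3 had 0.21. The part of position in these values was not tested.

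**Figure D5:**
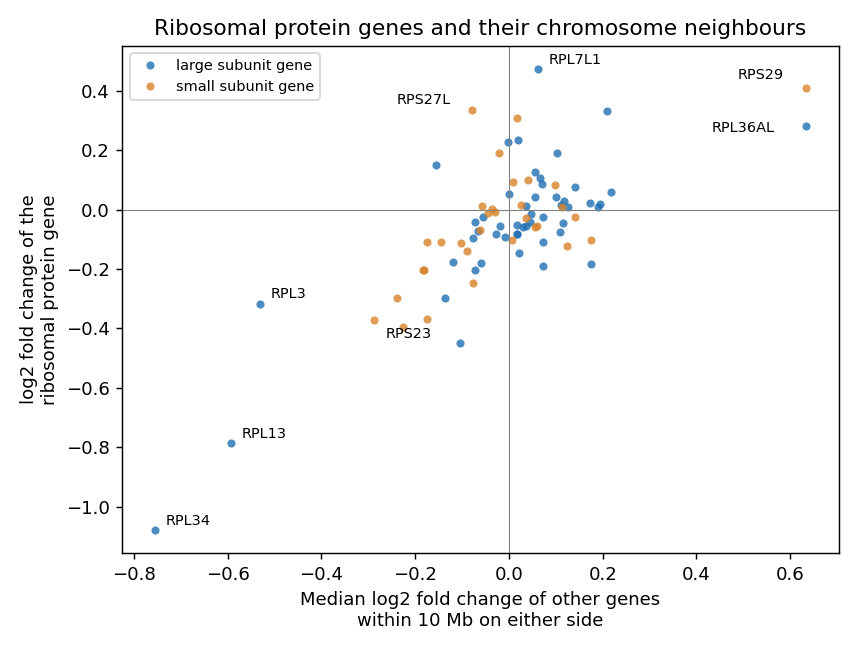
The log2 fold change of each member (vertical axis) is plotted against the median log2 fold change of the other genes tested within 10 Mb on either side (horizontal axis). RPL34 and RPL13 lie at the lower left (neighbour medians -0.76 and -0.59), RPS29 and RPL36AL at the right (0.63).

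The members were also split by the pyrimidine tract. The median log2 fold change was -0.05 over the 47 members with it and 0.08 over the matched members without it, among them 4 of the paralogs, and the difference was not tested. The tract bears on translation, which these RNA levels do not measure. Among 18 other translation genes whose mRNAs are of the TOP type, 0 passed the test, 9 were above and 9 below 0, and their median was 0.00. Their median deviations were -0.05, 0.02, and -0.05 in OVCAR5 and 0.23, 0.08, and -0.31 in OVCAR5R, low in OVCAR5R replicate 3 like the members but not raised in OVCAR5 replicate 2. PABPC1, the poly(A)-binding protein, had a log2 fold change of 0.49 and EIF3L, a subunit of initiation factor eIF3, -0.63.

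FAU, which is made as a fusion with a ubiquitin-like protein, and RACK1, a scaffold on the small subunit, also belong to the cytosolic ribosome but are not covered by the symbols. FAU was at 285, 553, and 345 in OVCAR5 and 354, 365, and 312 in OVCAR5R, a log2 fold change of -0.14. RACK1 was at 2495, 3155, and 2273 in OVCAR5 and 3084, 2286, and 1407 in OVCAR5R, a log2 fold change of -0.28. Neither passed the test, and both were highest in OVCAR5 replicate 2, as most members were.

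Genes that build ribosomes had another order of cultures than the ribosomal proteins. Of 43 large subunit assembly factors, 0 passed the test, 38 were above and 5 below 0, and their median was 0.30. Of 36 rows of the small subunit processome, the complex that starts small subunit assembly, 0 passed, 27 were above and 9 below 0, and the median was 0.34. Over the libraries the assembly factors deviated by -0.37, -0.32, and 0.26 in OVCAR5 and 0.28, 0.11, and 0.08 in OVCAR5R. OVCAR5 replicate 2, highest for the ribosomal proteins, was thus among the lowest for the assembly factors. The processome deviated by -0.34, -0.38, and 0.25 in OVCAR5 and by 0.25, 0.14, and 0.12 in OVCAR5R.

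Single assembly genes varied widely. BOP1, which processes large subunit rRNA, was at 138, 107, and 311 in OVCAR5 and 237, 362, and 266 in OVCAR5R, with overlap (log2 fold change 0.76). NOL6, a processome subunit, was at 52.4, 40.5, and 123 in OVCAR5 and 148, 126, and 134 in OVCAR5R, without overlap (log2 fold change 1.07, adjusted p = 0.394 by limma). At the low ends, MDN1, an ATPase that remodels the pre-large subunit, was at -0.39 and NOB1, which cuts the small subunit rRNA, at -0.48.

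In the remaining lists 0 genes passed as well. RNA polymerase I genes had a median of 0.14 (11 of 15 above 0), snoRNP and nucleolar proteins 0.22 (7 of 10), initiation factors 0.16 (19 of 28), regulators of mTORC1 and TOP mRNAs 0.03 (8 of 15), and snoRNA host RNAs -0.13 (3 of 11). EIF2S1, the alpha subunit of initiation factor eIF2, was at 179, 162, and 236 in OVCAR5 and 407, 345, and 407 in OVCAR5R, without overlap (log2 fold change 1.02, adjusted p = 0.192 by limma). SNHG8, a snoRNA host RNA, was at 26.7, 41.8, and 20.7 in OVCAR5 and 12.6, 12.3, and 11.7 in OVCAR5R, also without overlap (log2 fold change -1.16, adjusted p = 0.260 by limma). All 13 mitochondrial transcripts had lower means in OVCAR5R, 12 of them without overlap, and 0 passed.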

How the data were processed

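The authors deposited a normalized signal on a linear scale for each of 3 cultures of OVCAR5 and 3 of OVCAR5R. Per the labels the build was hg38, and the methods state quartile normalization. The aligner and counter are not given in the sources used here. Ribosomal protein genes have processed pseudogenes, and reads between a gene and its copies could be split. The 34 rows with pseudogene symbols summed to at most 0.903% of the member sum. A row present in identical copies was kept once.

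Values were taken as log2(value + 1), which understates changes of low genes. The test was limma's (version 3.58.1, run in R 4.3.3; lmFit, eBayes with trend, two-sided) on the genes that reached a value of 1 in 3 or more libraries, with Benjamini-Hochberg adjustment over all genes and a threshold of 0.05. The test was checked on simulated data with independent genes, which lack the shared movement between cultures seen here. An exact permutation test of 3 against 3 cannot give a p under 0.1. Estimated reads came from the smallest steps between low values. Depth limited precision less than the spread between cultures. Coding lengths and positions came from GENCODE release 29, and tracts from RefSeq (GRCh38.p14). Figures used Python version 3.11.15 with matplotlib version 3.10.9.

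The members and lists were chosen with earlier results of these data known. Named members were those called, the 5 highest and 5 lowest log2 fold changes, the 3 highest and 3 lowest mean values, paralog pairs, and RPLP0, RPLP1, RPLP2, RPL5, RPL11, RPS6, RPSA, and RPS27A. In each gene list, up to 2 genes at each end could be named. Alternatives were other scalings, filters, pseudocount, no trend, the replicate block, and each library left out. A gene of these lists is not reported here.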

Additional observations from a re-analysis of the deposited data

How the results depend on the processing

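Under all 15 alternatives 0 members were called in either direction, and the large and small subunit medians stayed within the spread between cultures. Over all genes the main test called 2 higher and 12 lower. This became 1 higher and 4 lower with a mean of at least 100, 1 higher and 4 lower with the replicate block, and 4 higher and 23 lower when centred on the member median, an alternative chosen after seeing the data. With each library left out, calls ranged from 0 to 8 higher and from 0 to 21 lower. Without OVCAR5 replicate 2 there were 8 and 21, and without OVCAR5R replicate 3 limma called 0 in either direction, with 864 genes at an unadjusted p under 0.05. Calls fell to 1 higher and 2 lower without OVCAR5 replicate 1, to 1 and 3 without OVCAR5R replicate 1, and to 0 and 2 without OVCAR5R replicate 2. The cause of these shifts was not tested.

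Members without overlap, 2 higher and 1 lower in the report, were 5 higher and 2 lower after quantile normalization (10.9% and 6.91% of all genes), 4 higher with the same total per library (11.6%) or over the other genes (11.9%), 0 higher with a mean of at least 100 (6.48%), and 6 higher and 3 lower when centred (3.69% and 4.84%). The filter on the mean removes RPS27L and RPL39L. Centring on the members' own median itself lowers the share of all genes, so the centred counts have no like background. With a library left out, the members without overlap ranged from 2 to 6 higher (6 without OVCAR5 replicate 2, 5 without OVCAR5R replicate 3) and from 1 to 9 lower (9 without OVCAR5R replicate 1, 6 without OVCAR5 replicate 1, 2 without OVCAR5 replicate 3). The share of all genes without overlap was then 12.1 to 16.8% higher and 12.1 to 16.4% lower, and 12.1% lower without OVCAR5R replicate 1. The member median log2 fold change ranged from -0.16 without OVCAR5 replicate 1 to 0.14 without OVCAR5 replicate 2.

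Deviations of same-numbered cultures correlated at -0.00, 0.18, and -0.12, which gave little sign of pairing by replicate number. Whether those cultures were handled together is not given in the sources used here. The replicate block called 0 members.

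Some log2 fold changes near 0 changed sign. After quantile normalization RPS2 was at 0.067, RPL4 at 0.060, RPL11 at 0.0027, and RPS6 at 0.060. With the same total per library RPL11 was at 0.011 and RPS6 at 0.038, with the same total over the other genes at 0.010 and 0.038, and when centred at 0.0024 and 0.030. With a library left out, the log2 fold change crossed 0 for RPS23 from -0.68 to 0.030, RPL8 from -0.066 to 0.17, RPS2 from -0.39 to 0.14, RPL4 from -0.27 to 0.15, RPL22L1 from -0.40 to 0.18, RPL22 from -0.019 to 0.16, RPL26 from -0.11 to 0.16. It also did so for RPL36A from -0.067 to 0.23, RPL39 from -0.14 to 0.28, RPS27 from -0.22 to 0.042, RPL26L1 from -0.17 to 0.34, RPLP0 from -0.094 to 0.18, RPLP1 from -0.34 to 0.074. The remaining crossings were RPLP2 from -0.28 to 0.18, RPL5 from -0.14 to 0.21, RPL11 from -0.19 to 0.14, RPS6 from -0.18 to 0.18, RPSA from -0.13 to 0.22, RPS27A from -0.14 to 0.11.

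With 3 cultures a line, the spread between cultures sets the precision, since every member had at least 691 estimated reads in each library. RPL34 stayed below 0 in all alternatives (adjusted p 0.213 to 0.582 by limma), and RPL7L1, RPS29, RPS27L, RPL39L, RPS26, and RPL36AL stayed above 0. RPL13, RPL28, RPS20, RPL3, RPL7, and RPL10 stayed below 0.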
